A study of Mus musculus with 8 samples.

Results

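The comparison set 4 libraries of HNRNPK 6A mutant cells against 4 libraries of wild-type (WT) cells, using all 8 libraries of the series. For each gene it took the mean of the genotype difference at day 0 and the genotype difference at day 14, and asked which genes differed in the same direction at both days. The cells were a hybrid mouse embryonic stem cell line from a CAST/Ei by 129/Sv/Jae cross, WT or 6A, with 2 libraries in each of the 4 groups of genotype and day. Day 0 cells were undifferentiated stem cells grown with leukemia inhibitory factor on a layer of irradiated mouse embryonic fibroblasts (feeders) that was taken off before harvest. Day 14 cells had been without the factor, first as floating embryoid bodies for 4 days and then attached to gelatin from day 5. The sources used here do not say which residues the 6A mutation changes or whether a genotype is 1 clone or several. The 2 libraries of a group are called biological replicates, with no statement on separate clones or differentiations, so p-values measure only the spread between these libraries.

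HNRNPK belongs to the heterogeneous nuclear ribonucleoprotein family of RNA-binding proteins. It binds cytosine-rich stretches of RNA through its KH domains and takes part in transcription, splicing and translation. In X inactivation it joins Xist, the long noncoding RNA that coats the X chromosome to be silenced, to Polycomb complexes. Embryoid bodies form a mixture of neural, cardiac, blood, endothelial and endodermal cells, so a gene that differs at both days does so in cultures of very different makeup. In bulk RNA, fewer cells of a type and less RNA per cell cannot be told apart.

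The libraries held 8146684 to 15540163 counts. Of 24421 genes, 15458 passed the filter on low counts and were tested with edgeR's quasi-likelihood test, and a gene was called when its Benjamini-Hochberg adjusted p was under 0.05. Values are given as CPM, which are counts relative to the TMM-scaled library size, and differences are log2 of 6A over WT. The 7 Y-linked genes of the tables, summed, stood at 28.3 and 28.2 CPM in the WT libraries at day 0 and at 43.4 and 46.9 CPM in the 6A libraries. Their sum was 0.0966 CPM in 1 library at day 14 and 0 in the other 3. Both X alleles were read at about equal levels at day 0, with a median share of the non-CAST allele of 51.1% to 54.5% in the 4 libraries. X-linked RNA thus came from both parental X chromosomes in the same day 0 libraries that held Y-linked RNA.

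Hnrnpk itself was lower in 6A at both days. At day 0 it stood at 880 and 709 CPM in WT, against 527 and 538 CPM in 6A. The level at day 14 was 495 and 474 CPM in WT, against 348 and 385 CPM in 6A. Each 6A library was thus below each WT library of its day. The average log2 difference was -0.49 ± 0.09 (SE; edgeR adjusted p = 0.0037), with -0.58 at day 0 and -0.40 at day 14. Counts do not show whether a given read carried the mutation, so this does not check the substitution itself. Among the 30 hnRNP and poly(C)-binding protein genes tested, Hnrnpk was shifted at both days (3.33%, all genes 5.75%), a count of 1 that was 4 without WT day 0 replicate 1, 2 without WT day 0 replicate 2, 3 without WT day 14 replicate 2, 3 with a replicate block, 2 without a filter on low counts and 3 with an added correction for GC content, and Hnrnph3 was called in the average at -0.48 through day 14. Xist did not pass the test in the average, at -0.18 ± 0.10 (SE; edgeR adjusted p = 0.27, with a 95% interval at each day that includes 0), although with the GC correction the adjusted p was 0.025 at -0.31. Xist stood at 73.1 and 57.8 CPM in WT, against 54.6 and 64.7 CPM in 6A at day 0. It stood at 1130 and 1160 CPM in WT, against 913 and 1020 CPM in 6A at day 14. None of the 19 Xist silencing and localization factors tested was called in the average (all genes 8.11%). A list this short can hold none at that share.

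In the average over both days, 1254 genes were called, 8.11% of those tested, with 642 higher in 6A (4.15%) and 612 lower (3.96%). The count was 1967 without WT day 0 replicate 1, 824 and 698 without 6A day 0 replicates 1 and 2, 542 and 730 without WT day 14 replicates 1 and 2, 753 and 634 without 6A day 14 replicates 1 and 2, and 704 in a model with 1 genotype term and 1 day term. An average can rest on 1 day, and 128 of the called genes had opposite signs at the 2 days. A gene was counted as shifted at both days when it was called in the average, its fitted difference had the same sign at both days, and at each day both 6A libraries lay on that side of both WT libraries. This held for 889 genes, 5.75% of those tested, with 513 higher in 6A (3.32%) and 376 lower (2.43%). Of all genes tested, 8253 (53.4%) had fitted differences of the same sign at both days. Whether called or not, 2361 genes (15.3%) had groups that did not overlap in the same direction at both days, against 1756 genes (11.4%) in opposite directions. A further 237 called genes had the same sign but overlapping groups at 1 or both days. Among the genes whose groups did not overlap in the same direction at both days, Slc1a3 was the last called (edgeR adjusted p = 0.0499, average -0.35). Ak6 was the first of them not called (edgeR adjusted p = 0.05, average 0.38).

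The shifts were mostly modest. The 513 higher genes had a median average difference of 0.48 and a middle range from 0.39 to 0.71, with medians of 0.46 at day 0 and 0.54 at day 14. The 376 lower genes had a median of -0.79 and a middle range from -1.25 to -0.56, with medians of -0.57 at day 0 and -0.95 at day 14. These are descriptions of sets chosen on the same contrasts. Differences of at least 1 on the log2 scale at both days were found for 17 higher and 52 lower genes. The difference was larger at day 14 than at day 0 for 267 of the 376 lower genes and for 302 of the 513 higher genes.

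Day 0 gave 244 genes (1.58%), 164 higher (1.06%) and 80 lower (0.518%). Day 14 gave 2109 genes (13.6%), 824 higher (5.33%) and 1285 lower (8.31%). The comparisons at the 2 days share no library, but they come from 1 fit with a shared estimate of the spread, so their calls are not independent. Of the day 0 genes, 64 were called at day 14 in the same direction, 26.2% of the day 0 genes and 3.03% of the day 14 genes, which is 0.414% of genes tested, with 34 higher (0.22%) and 30 lower (0.194%), and 18 were called in opposite directions (0.116%). The count of 64 was 7 without either 6A library of day 0, 12 and 15 without WT day 14 replicates 1 and 2, 16 and 20 without 6A day 14 replicates 1 and 2, 35 without WT day 0 replicate 2 and 138 without WT day 0 replicate 1. The day 0 count of 244 lay between 29 (without 6A day 0 replicate 2) and 537 (without WT day 0 replicate 1), and the day 14 count of 2109 was 1026 to 1127 without any of the 4 libraries of day 14. A gene said to be called at each day therefore passed with all 8 libraries in the fit. Of the 889 genes shifted at both days, 499 were called at day 14 only, 64 at day 0 only, and 262 at neither day alone. A similar size at both days was taken as a 95% interval of the between-day difference within -1 to 1 on the log2 scale. It was met by 538 genes (3.48%), 383 higher (2.48%) and 155 lower (1%). That window is wide for modest shifts, so membership does not mean equal differences. Ercc6l is a member with 0.11 at day 0 and 0.64 at day 14, and an interval from 0.13 to 0.93. The difference itself changed between the days for 733 genes by the interaction test (4.74%), 71 of them among the 889. The count of 889 moved with single libraries. It was 1637 without WT day 0 replicate 1, 414 without WT day 14 replicate 1, 571 without WT day 14 replicate 2, 555 without 6A day 0 replicate 2, 574 without 6A day 14 replicate 1 and 458 without 6A day 14 replicate 2. A model with 1 genotype term and 1 day term, in which any between-day change of the difference counts as spread, gave 507 such genes, 487 of them among the 889.

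**Figure D1:**
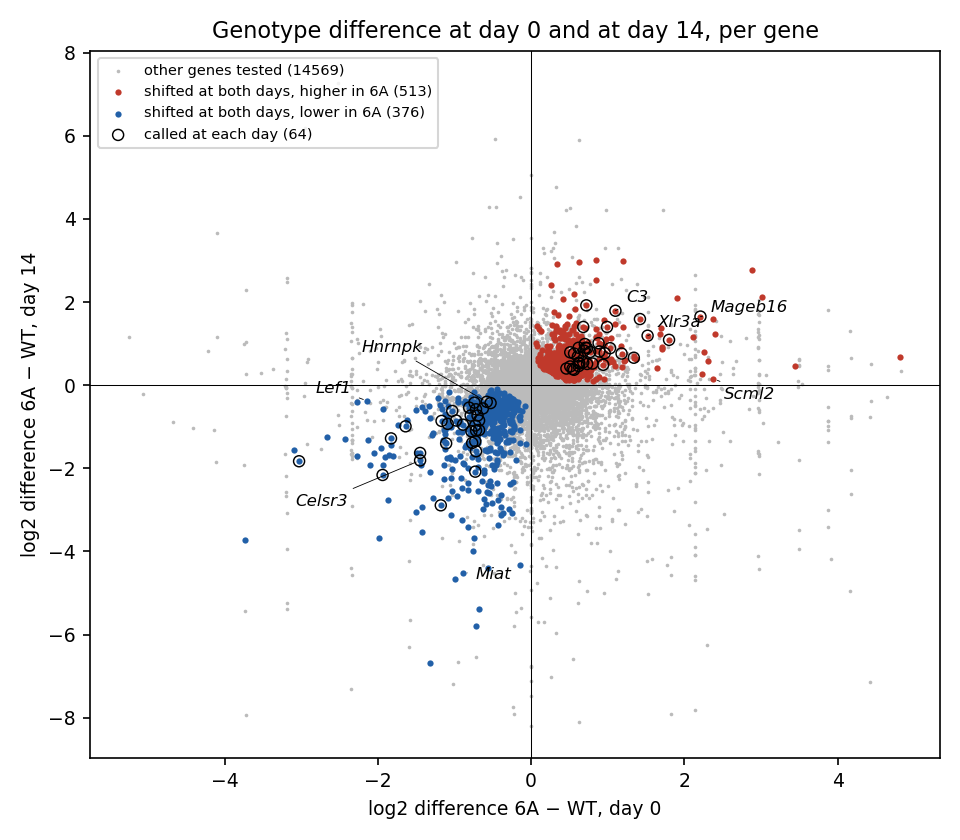
Each point is 1 of the 15458 genes tested, placed by its log2 difference (6A minus WT) at day 0 on the horizontal axis and at day 14 on the vertical axis. Red and blue points are the 513 higher and 376 lower genes shifted at both days, circles are the 64 genes called at each day, and columns of grey points are genes with few or no counts in a group. Lower genes reach further at day 14 than at day 0, as Miat does.

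The X chromosome held more of the higher genes than any other chromosome. Of 590 X-linked genes tested, 56 were higher at both days (9.49%, against 3.32% of all genes) and 5 were lower (0.847%, against 2.43%). These 56 made up 10.9% of the higher set. The median average difference over all X-linked genes tested was 0.13, with 0.17 at day 0 and 0.09 at day 14, while the medians over all genes were 0.01, 0.01 and 0. With the GC correction, the count was 35 higher and 6 lower of 564 X-linked genes, which is 6.21% against 3.36% of all genes, and the X-linked median was 0.05. The count was 33 in the model with single day and genotype terms, 23 without WT day 14 replicate 1, 30 without 6A day 0 replicate 2, 30 without 6A day 14 replicate 2 and 81 without WT day 0 replicate 1. Of the 15 named higher genes, 4 lay on the X chromosome, namely Xlr3a, Xlr3c, Mageb16 and Cited1.

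Xlr3a, Xlr3c and Mageb16 are X-linked genes whose RNA is best known from testis and germ cells. Xlr3a and Xlr3c belong to the X-linked lymphocyte-regulated family of close copies on the X chromosome, so reads may be split between members in a way the tables do not show. Their promoter sequences are given because all 3 genes were called at each day, and because such genes are commonly held silent by methylation of promoter CpG. The sequences run 5′ to 3′ on the gene's strand from 250 bases before to 50 bases after the start, from RefSeq on GRCm38.p6, with each CpG in capitals. Xlr3a lies at chrX:73097046-73097345 (minus strand, 5 CpG), Xlr3c at chrX:73265341-73265640 (minus strand, 7 CpG) and Mageb16 at chrX:79671386-79671685 (minus strand, 6 CpG).
Xlr3a: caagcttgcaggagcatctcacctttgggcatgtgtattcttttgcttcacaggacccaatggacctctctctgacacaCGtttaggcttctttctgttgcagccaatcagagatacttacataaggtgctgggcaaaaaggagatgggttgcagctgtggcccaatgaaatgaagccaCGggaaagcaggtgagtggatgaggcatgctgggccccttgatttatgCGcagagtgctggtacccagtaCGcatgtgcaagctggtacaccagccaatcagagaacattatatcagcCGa
Xlr3c: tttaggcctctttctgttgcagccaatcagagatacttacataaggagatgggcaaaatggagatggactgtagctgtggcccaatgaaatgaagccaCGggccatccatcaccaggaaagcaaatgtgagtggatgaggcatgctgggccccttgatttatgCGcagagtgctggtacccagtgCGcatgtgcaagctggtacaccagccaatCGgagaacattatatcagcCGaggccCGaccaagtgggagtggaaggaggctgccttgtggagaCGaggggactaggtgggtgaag
Mageb16: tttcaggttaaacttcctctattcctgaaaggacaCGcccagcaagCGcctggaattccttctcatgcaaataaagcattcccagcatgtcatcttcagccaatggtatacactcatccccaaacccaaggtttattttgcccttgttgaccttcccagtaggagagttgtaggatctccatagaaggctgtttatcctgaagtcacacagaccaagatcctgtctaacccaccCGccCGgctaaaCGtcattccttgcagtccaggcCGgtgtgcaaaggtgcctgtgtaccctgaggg
Over promoter windows of the same length, the 48 of 56 higher X-linked genes with an entry had a median of 11 CpG, and the 503 of 590 X-linked genes tested with an entry had a median of 14. The 3 promoters shown thus lie under both medians. DNA methylation was not measured in these files.

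Xlr3a stood at 31.1 and 26.6 CPM in WT, against 79.7 and 85.3 CPM in 6A at day 0. On day 14 it stood at 6.03 and 5.54 CPM in WT, against 12.9 and 13.3 CPM in 6A. Its level was lower at day 14 in both genotypes and 6A was above WT at each day, with an average difference of 1.36 ± 0.11 (SE; edgeR adjusted p = 1.3e-05) and a between-day difference of -0.33 with a 95% interval from -0.80 to 0.13. Xlr3c showed the same order, with 6.91 and 6.57 CPM in WT, against 23.8 and 23.0 CPM in 6A at day 0. At day 14 it stood at 1.62 and 1.58 CPM in WT, against 3.96 and 2.90 CPM in 6A, an average of 1.45 ± 0.17 (SE; edgeR adjusted p = 0.0002). Mageb16, a melanoma antigen family gene, stood at 0.740 and 1.06 CPM in WT, against 4.02 and 4.67 CPM in 6A at day 0, and at 0.464 and 0.474 CPM in WT, against 1.64 and 1.35 CPM in 6A at day 14. Its average of 1.93 ± 0.31 (SE; edgeR adjusted p = 0.0014) rested on 10 WT counts in all at day 14.

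Of 44 X-linked testis-type genes listed, 30 were tested and 10 were called in the average, all higher (all genes 4.15%). Of the 30, 7 were shifted at both days (23.3%, all genes 3.32%), namely Fmr1nb, Mageb16, Rhox5, Scml2, Tsx, Xlr3a and Xlr3c. The list's median was 1.51 at day 0 and 0.20 at day 14, a far larger difference before differentiation. The 7 became 4 without WT day 14 replicate 1, without WT day 14 replicate 2, without 6A day 14 replicate 1, and with the GC correction. Scml2, a germline Polycomb group gene, shows how the average can carry a difference of mainly 1 day. It stood at 13.7 and 17.1 CPM in WT, against 82.9 and 79.3 CPM in 6A at day 0, but at 19.2 and 20.6 CPM in WT, against 23.0 and 21.7 CPM in 6A at day 14. Its between-day difference was -2.22 (edgeR adjusted p = 8e-05). Other X-linked genes shifted higher ranged widely, from 1700019B21Rik at 2.83, a fitted value that rests on 1 WT and 8 6A counts at day 14, and Agtr2, an angiotensin receptor, at 1.32 to smaller differences such as Lamp2 of the lysosome membrane at 0.45, Gla, the lysosomal alpha-galactosidase, at 0.59, and Atp7a, a copper transporter, at 0.44. The 5 lower X-linked genes were Ccdc120, Porcn, Syp, Usp11 and Zcchc18.

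Reads that the authors gave to an allele show the X-linked shift on both alleles. Since they are part of the same counts, they describe the shift and do not test it again. For the 56 higher genes, over those with at least 20 reads of the allele, the median log2 difference of CAST reads was 0.32 at day 0 (35 of 45 genes above 0) and 0.46 at day 14 (39 of 43). For reads of the other parental genome, whose column is named mus, the medians were 0.46 at day 0 (45 of 47) and 0.73 at day 14 (27 of 30). The genes differed in their shares at day 0. Agtr2 had 159 mus and 0 CAST reads in WT, against 293 and 2 in 6A. The mus share was 79.9% in WT and 82.1% in 6A for Lamp2, and 51.8% and 58.1% for Atp7a. Among the other 534 X-linked genes tested, the CAST medians were -0.02 and -0.01, close to 0, while the mus medians were 0.19 at day 0 and 0.42 at day 14. The mus allele was the low one at day 14, with a median share per gene over the X chromosome of 8.90% and 9.21% in WT and 12.6% and 12.9% in 6A. In the median, the other X-linked genes thus differed in mus reads at both days and not in CAST reads, and the 56 higher genes had positive medians in both. The 56 were chosen for higher counts of all reads, and their allele reads at day 14 were mostly CAST. Their positive CAST medians, and those near 0 among the genes left over, thus follow in part from that choice. The day 0 libraries also held Y-linked RNA, with a 6A to WT ratio of 1.60. The part of feeder RNA in the day 0 mus reads was not tested.

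**Figure D2:**
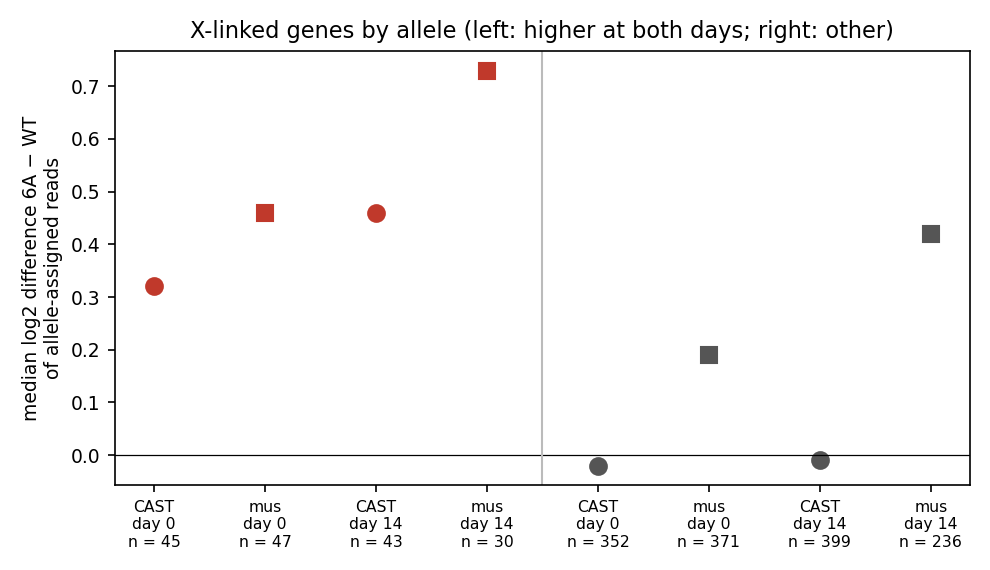
Points are median log2 differences (6A minus WT) of allele-assigned reads over X-linked genes with at least 20 such reads, by allele and day, with the number of genes under each. The 56 genes higher at both days (red), a set chosen for higher counts of all reads, have medians from 0.32 to 0.73 on all 4. The other X-linked genes (grey) are near 0 on CAST (circles) and above 0 on mus (squares).

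Of the 15 named higher genes, several autosomal ones belong to macrophages or the complement system. Lyz2, the macrophage lysozyme, stood at 1.36 and 1.13 CPM in WT, against 2.82 and 3.67 CPM in 6A at day 0. The level at day 14 was 9.97 and 9.33 CPM in WT, against 28.7 and 29.2 CPM in 6A, an average of 1.5 ± 0.17 (SE; edgeR adjusted p = 0.00014). The groups did not overlap at either day, as the definition of the set asks, and the differences were 1.42 at day 0 and 1.59 at day 14. C3, the central complement component, stood at 3.33 and 4.52 CPM in WT, against 8.64 and 8.61 CPM in 6A at day 0, and at 9.39 and 9.09 CPM in WT, against 32.6 and 31.4 CPM in 6A at day 14 (average 1.44 ± 0.13 SE, edgeR adjusted p = 3.9e-05). Mpeg1, a pore-forming protein of macrophages, stood at 2.96 and 3.18 CPM in WT, against 6.16 and 6.14 CPM in 6A at day 0, and at 24.8 and 26.8 CPM in WT, against 61.1 and 75.3 CPM in 6A at day 14 (average 1.19 ± 0.13 SE, edgeR adjusted p = 0.00011). All 3 genes were called at each day.

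The wider macrophage list was put together after values were seen, so its counts only describe. Of its 31 genes 30 were tested, and 7 were higher at both days (23.3%, against 3.32% of all genes), none lower. They were Adgre1, C3ar1, Ctsc, Ctss, Lyz2, Mpeg1 and Tlr4. Without WT day 0 replicate 2 the count was 4. At day 14 the summed level of the 31 genes was 591 and 598 CPM in WT, against 1050 and 1070 CPM in 6A. At day 0 the sum was 161 and 148 CPM in WT, against 159 and 166 CPM in 6A, so the list as a whole lay in overlapping ranges there. Adgre1, which encodes the F4/80 antigen, was read at day 0 from 8 counts in WT and 21 in 6A, and C3ar1, the receptor of the complement fragment C3a, from 10 and 24 counts. Of the 22 blood genes tested, 3 were shifted higher (13.6%, all genes 3.32%), Adgre1, Lyz2 and Gata1, while 18 were called higher at day 14 (all genes 5.33%). Without WT day 0 replicate 1 the blood count was 6. Hbb-bh1, an embryonic globin, was called in the average at 2.73 but went from 7 counts in WT and 6 in 6A at day 0 to 10 and 605 counts at day 14. The other named higher genes outside these groups were read from few WT counts at day 0, with 2 for Olr1, a scavenger receptor for oxidised lipoprotein, 4 for Il15, a cytokine, 6 for Agtr1a, an angiotensin receptor, 6 for Ces2g, a carboxylesterase, 9 for Dkkl1, 11 for Cited1, a transcriptional coactivator, and 18 for Camk4, a calcium-dependent kinase.

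Timp3, an inhibitor of matrix metalloproteases, stood at 82.7 and 80.6 CPM in WT, against 123 and 128 CPM in 6A at day 0. On day 14 it stood at 298 and 308 CPM in WT, against 545 and 585 CPM in 6A, an average of 0.76 ± 0.07 (SE; edgeR adjusted p = 7.4e-05). Lox, which cross-links collagen, stood at 87.0 and 84.4 CPM in WT, against 133 and 131 CPM in 6A at day 0, and at 240 and 233 CPM in WT, against 337 and 340 CPM in 6A at day 14. It was called at each day, with an average of 0.57 ± 0.07 (SE; edgeR adjusted p = 0.00042). In the list of fibroblast and mesenchyme genes, which also marks feeders, 4 of 26 (15.4%, all genes 3.32%) were shifted higher, Dcn, Lox, Ogn and Pdgfra, and none lower. At day 14, 4 members were called higher (all genes 5.33%) and 5 lower (all genes 8.31%). The count was 2 without WT day 14 replicate 1 and 7 with the GC correction. The list's median was 0.29 at day 0 and -0.10 at day 14, and its summed level at day 0 was 5660 and 6280 CPM in WT, against 7460 and 6760 CPM in 6A. For the Y-linked sum at day 0 the ratio of 6A to WT was 1.60, or 0.68 on the log2 scale. Of the 513 higher genes, 407 had a day 0 difference at or below that and 106 above it. The part of feeder RNA in the day 0 differences was not tested. At day 14, where the Y-linked sum was at most 0.0966 CPM, Timp3 and Lox differed by 0.90 and 0.52.

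Of 33 Hox genes tested, which set position along the body axis, 6 were higher at both days (18.2%, all genes 3.32%) and none was lower. They were Hoxa9, Hoxa13, Hoxc10, Hoxc13, Hoxd11 and Hoxd13, all from the posterior groups of their clusters. Hoxd13 stood at 23.7 and 24.9 CPM in WT, against 36.4 and 42.2 CPM in 6A at day 0. At day 14 it stood at 4.17 and 4.82 CPM in WT, against 7.34 and 8.78 CPM in 6A, an average of 0.76 ± 0.13 (SE; edgeR adjusted p = 0.0023), and it was the Hox gene called at each day. Hoxc10 stood at 1.23 and 1.27 CPM in WT, against 2.74 and 2.00 CPM in 6A at day 0, and at 2.43 and 3.32 CPM in WT, against 6.66 and 7.24 CPM in 6A at day 14. The list's median was 0.50 in the average, against 0.01 over all genes. The count of 6 fell to 3 without 6A day 0 replicate 2, 3 without 6A day 14 replicate 1, 2 without 6A day 14 replicate 2 and 2 without WT day 14 replicate 2.

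Sfmbt2, an imprinted Polycomb group gene, was among the higher genes of similar size at both days. It stood at 80.3 and 88.7 CPM in WT, against 137 and 144 CPM in 6A at day 0, and at 35.5 and 39.0 CPM in WT, against 62.7 and 75.3 CPM in 6A at day 14 (average 0.81 ± 0.09 SE, edgeR adjusted p = 0.00015). Of 35 Polycomb subunit genes tested, Aebp2 and Scml2 were shifted higher (5.71%, all genes 3.32%) and none lower. The count was 0 with the GC correction or the additive model, 1 without either 6A library of day 0, WT day 14 replicate 1 or 6A day 14 replicate 2, and 4 with RLE scaling, without a filter on low counts or without feeder and Y-linked genes. H2-D1, a class I histocompatibility gene, stood at 34.7 and 33.1 CPM in WT, against 64.9 and 50.5 CPM in 6A at day 0, and at 9.97 and 10.3 CPM in WT, against 19.5 and 15.7 CPM in 6A at day 14. It was called at each day, with 0.77 and 0.80. It was 1 of 4 shifted higher among 30 interferon response genes (13.3%, all genes 3.32%), B2m and Rsad2 among them, a count that was 1 without 6A day 0 replicate 2, and 2 without WT day 14 replicate 2 or without 6A day 14 replicate 2. Of 23 p53 target genes, 4 were shifted higher (17.4%, all genes 3.32%), Ccng1 by 0.39, Ei24 by 0.28, Mdm2 by 0.28 and Pmaip1 by 0.45, a count that was 0 to 2 without any library other than WT day 0 replicate 1. Of 27 pluripotency genes, 3 were shifted higher (11.1%, all genes 3.32%), Fgf4, Tcl1 and Tdgf1, the list's median being -0.06 at day 0 and 0.45 at day 14, and the count was 0 without WT day 14 replicate 1, 1 without WT day 14 replicate 2, 6A day 0 replicate 2 or 6A day 14 replicate 2, and 7 without WT day 0 replicate 1.

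**Figure D3:**
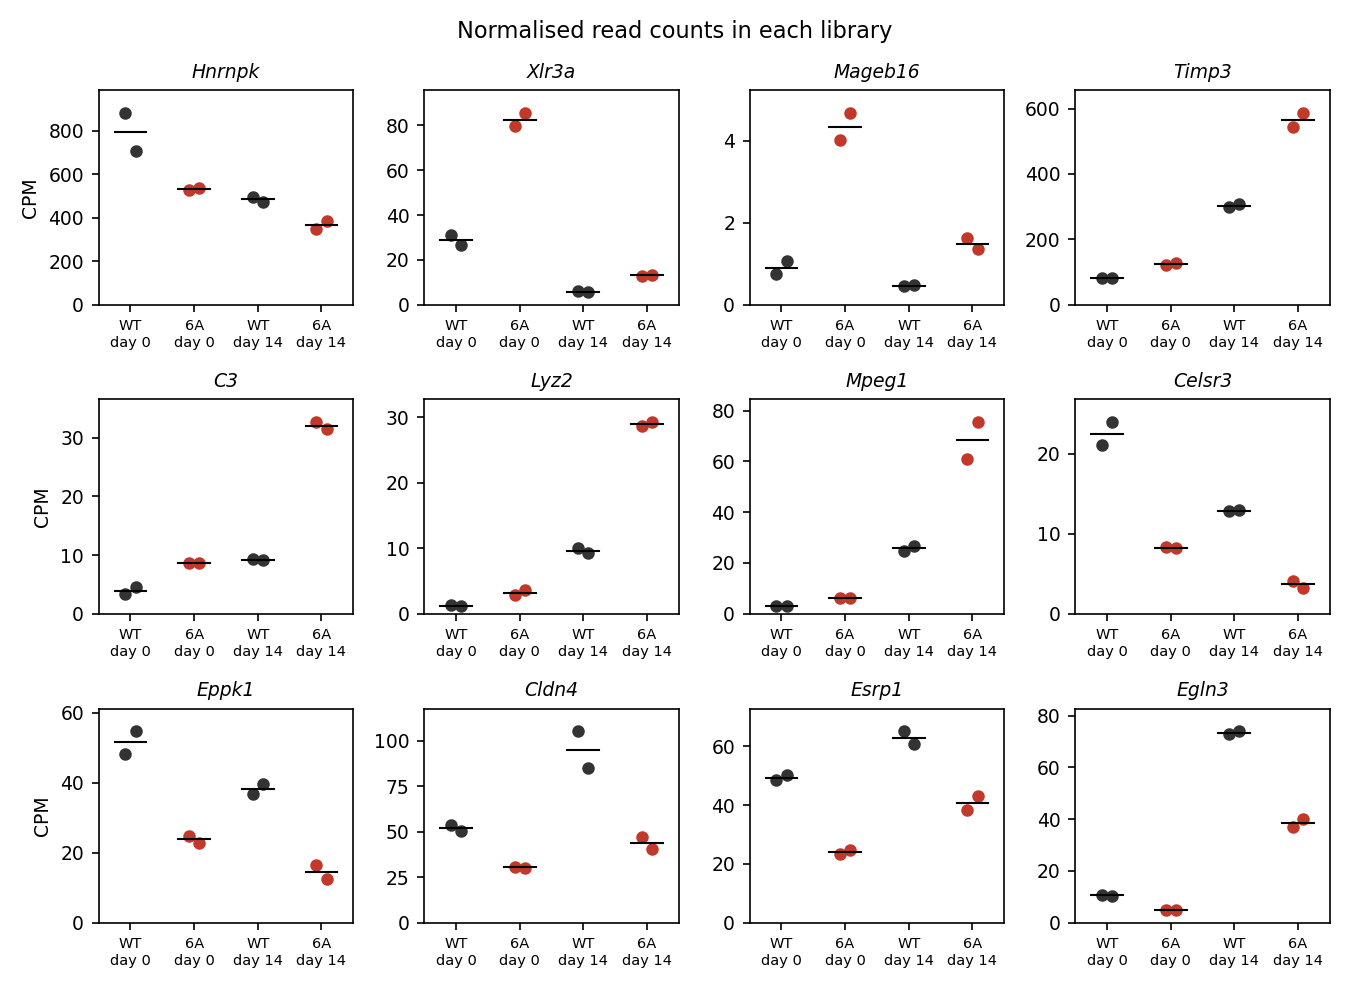
Each panel gives the CPM of a gene in the 8 libraries, WT in dark grey and 6A in red, with a line at the mean of the 2 libraries of a group and an axis from 0. In every panel both 6A libraries lie on the same side of both WT libraries at day 0 and at day 14, below for Hnrnpk, Celsr3, Eppk1, Cldn4, Esrp1 and Egln3 and above for the others. All genes drawn met the definition of a shift at both days, which asks for this order.

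The genes lower in 6A at both days included many that build and specify epithelia. Eppk1, epiplakin, which binds keratin filaments, stood at 48.3 and 54.6 CPM in WT, against 24.8 and 22.8 CPM in 6A at day 0. The level at day 14 was 36.7 and 39.6 CPM in WT, against 16.5 and 12.5 CPM in 6A, an average of -1.26 ± 0.11 (SE; edgeR adjusted p = 2.6e-05). The differences of -1.11 and -1.40 were of similar size, and Eppk1 was called at each day. Cldn4, a claudin of tight junctions, stood at 53.8 and 50.6 CPM in WT, against 30.7 and 30.0 CPM in 6A at day 0, and at 105 and 85.1 CPM in WT, against 47.0 and 40.5 CPM in 6A at day 14 (average -0.95 ± 0.10 SE, edgeR adjusted p = 9.7e-05). Esrp1, the splicing regulator of epithelial isoforms, stood at 48.4 and 50.3 CPM in WT, against 23.5 and 24.8 CPM in 6A at day 0, and at 65.0 and 60.7 CPM in WT, against 38.3 and 43.2 CPM in 6A at day 14 (average -0.83 ± 0.09 SE, edgeR adjusted p = 0.00013). Each 6A library was below each WT library of its day, as the definition of the set asks, by more than the gap between replicates.

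All 7 genes called in the average among 20 tested trophoblast and simple epithelium genes were lower at both days, which is 35.0% of the list against 2.43% of all genes. They were Ap1m2, Cldn4, Cldn6, Epcam, Esrp1, Grhl2 and Krt18. The list did not move as a whole at day 14, where 6 members were called higher (all genes 5.33%) and 6 lower (all genes 8.31%). Its median was -0.09 at day 14, against -0.47 at day 0. Ap1m2, the clathrin adaptor subunit of polarised epithelia, differed mainly at day 0, at 14.3 and 11.4 CPM in WT, against 3.08 and 2.27 CPM in 6A. On day 14 it stood at 12.1 and 9.09 CPM in WT, against 7.44 and 8.4 CPM in 6A, and the between-day difference of 1.86 passed the test (edgeR adjusted p = 0.0059). A wider list of epithelial junction and barrier genes was put together after values were seen, so it is no more than a description. It had 22 of 47 tested members lower at both days (46.8%, all genes 2.43%) and none higher (all genes 3.32%). Of the 47, 34 had fitted differences below 0 at both days, or 72.3%, against 24.7% of all genes. The list includes the grainyhead factors Grhl1 and Grhl2, which control epithelial genes, the membrane proteases and inhibitors St14 and Spint1, the desmosomal plaque proteins Evpl and Pkp3, and Rab25, a vesicle traffic protein of epithelia, at -1.33. Its median was -0.45 at day 0 and -0.72 at day 14, and the count lay between 16 and 26 when single libraries were left out and was 18 with the GC correction. The 22 include all 7 of the trophoblast and simple epithelium list.

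Celsr3, an atypical cadherin of planar polarity that guides axons, was the lower gene with the smallest adjusted p in the similar-size class. It stood at 21.1 and 23.9 CPM in WT, against 8.29 and 8.21 CPM in 6A at day 0. At day 14 it stood at 12.8 and 13 CPM in WT, against 4.06 and 3.28 CPM in 6A, an average of -1.63 ± 0.13 (SE; edgeR adjusted p = 1.3e-05). The groups were far apart at both days compared with the gap between replicates, in a gene picked for groups without overlap and a small adjusted p. Sfi1, a centriole-associated protein, stood at 21.0 and 22.0 CPM in WT, against 11.3 and 11.9 CPM in 6A at day 0, and at 114 and 122 CPM in WT, against 63.1 and 59.0 CPM in 6A at day 14. Its differences of -0.89 and -0.95 were nearly equal. Atcay, the brain protein caytaxin, was lower by larger amounts at low levels, with 1.97 and 1.84 CPM in WT, against 0.428 and 0.534 CPM in 6A at day 0, and 5.56 and 4.51 CPM in WT, against 1.06 and 1.16 CPM in 6A at day 14 (average -2.05 ± 0.28 SE, edgeR adjusted p = 0.00043).

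The 15 named lower genes were picked by the smaller of their differences at the 2 days, and low levels at day 0 bear on many of them. In 8 of the 15 the 6A libraries at day 0 held at most 5 counts together, namely Cdh22, Chst5, Dmrt2, Fsd2, Insm1, Kcng3, Prox1 and Spon1. Fsd2 had 3 counts in WT and 0 in 6A at day 0, where no ratio is given, and 85 against 6 counts at day 14. Insm1, a zinc finger factor of neuroendocrine cells and newborn neurons, had 14 counts in WT and 4 in 6A at day 0 and 143 against 11 at day 14. Prox1, a homeobox factor of lymphatic and neural cells, had 5 counts against 1 at day 0 and 200 against 59 at day 14. For these 8 genes the day 14 libraries carry most of the information. Of the 15, Atcay, Celsr3 and Evpl were called at each day. The rest were Foxj1, the factor of motile cilia, Jakmip2, Mfi2 and Prom2, for which day 0 counts in 6A lay between 11 and 21.

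Genes of neurons and heart muscle were called lower at day 14 far more often than at day 0, where 1 neural gene (Gap43) and 1 cardiac gene (Mybpc3) were called. Of 30 neural genes tested, 26 were called lower at day 14 (all genes 8.31%), 19 were called lower in the average (all genes 3.96%), and 9 (30.0%, all genes 2.43%) were shifted lower by the definition above, which asks for no call at either day, among them Elavl3, Elavl4, Gap43, Map2, Miat, Neurod1, Sox11 and Tubb3. The list's median was -0.22 at day 0 and -3.22 at day 14, and the count of 9 was 14 without WT day 0 replicate 1 and 5 in the model with single day and genotype terms. None of them was called at each day. Map2, a microtubule protein of dendrites, stood at 22.6 and 22.9 CPM in WT, against 17.4 and 16.4 CPM in 6A at day 0. Its day 0 difference of -0.43 did not pass the test (edgeR adjusted p = 0.15). It stood at 47.1 and 54.2 CPM in WT, against 7.82 and 7.24 CPM in 6A at day 14, and the between-day difference was -2.32 (edgeR adjusted p = 8e-05). Of 24 cardiac genes tested, 18 were called lower at day 14 (all genes 8.31%) and 4 (16.7%, all genes 2.43%) were shifted lower, Mybpc3, Myh7, Tnnc1 and Tnni1. Mybpc3, the cardiac myosin-binding protein, was called at each day, with 4.32 and 4.94 CPM in WT, against 1.88 and 2.20 CPM in 6A at day 0, and 64.7 and 57.6 CPM in WT, against 8.11 and 8.4 CPM in 6A at day 14. The cardiac count was 9 without WT day 0 replicate 1, 7 without WT day 0 replicate 2 and 7 without 6A day 0 replicate 2.

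Of 30 Wnt signalling genes tested, 5 were lower (16.7%, all genes 2.43%) and 1 higher (3.33%, all genes 3.32%) at both days. The lower ones were the targets Axin2 and Sp5, the nuclear effector Lef1 and the ligands Wnt6 and Wnt7b, and the higher one was the ligand Wnt5a. Axin2, a feedback inhibitor of the pathway, stood at 9.63 and 8.83 CPM in WT, against 7.78 and 5.47 CPM in 6A at day 0. The level at day 14 was 27.7 and 29.3 CPM in WT, against 15.3 and 9.75 CPM in 6A, an average of -0.84 ± 0.16 (SE; edgeR adjusted p = 0.0058). Lef1 differed mostly at day 0, at 7.65 and 10.6 CPM in WT, against 1.97 and 2.20 CPM in 6A, against 25.5 and 30.0 CPM in WT, against 18.0 and 24.8 CPM in 6A at day 14. Wnt5a stood at 27.9 and 26.0 CPM in WT, against 35.9 and 39.6 CPM in 6A at day 0, and at 39.9 and 41.8 CPM in WT, against 58.5 and 67.5 CPM in 6A at day 14. The list's median was 0.02 at day 0 and -0.23 at day 14, so the shifted members do not stand for the list.

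Of 28 glycolysis and hypoxia genes tested, 5 were lower at both days (17.9%, all genes 2.43%) and none higher, namely Adm, Egln3, Hk2, Pfkp and Slc16a3. Egln3, a prolyl hydroxylase that marks hypoxia-inducible factor for destruction and is itself induced by hypoxia, was called at each day. It stood at 10.9 and 10.5 CPM in WT, against 4.96 and 5.07 CPM in 6A at day 0, and at 73.0 and 73.9 CPM in WT, against 37.0 and 40.1 CPM in 6A at day 14. Its average was -1.01 ± 0.10 (SE; edgeR adjusted p = 8.1e-05) with a between-day difference of 0.16 and a 95% interval from -0.28 to 0.59. Pfkp, the platelet phosphofructokinase, was lower by 0.43 on the log2 scale in the average, and the other members by 0.35 to 0.57. The list's median was -0.13 at day 0 and -0.30 at day 14. The count of 5 was 9 without WT day 0 replicate 1 and 3 without either 6A library of day 0 or without 6A day 14 replicate 2. Among abundant noncoding RNAs, Terc, the telomerase RNA, stood at 137 and 164 CPM in WT, against 86.6 and 87.7 CPM in 6A at day 0, and at 19.6 and 14.3 CPM in WT, against 13.9 and 13.6 CPM in 6A at day 14. Its average of -0.54 passed the test (edgeR adjusted p = 0.0094) but not without WT day 14 replicate 1.

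**Figure D4:**
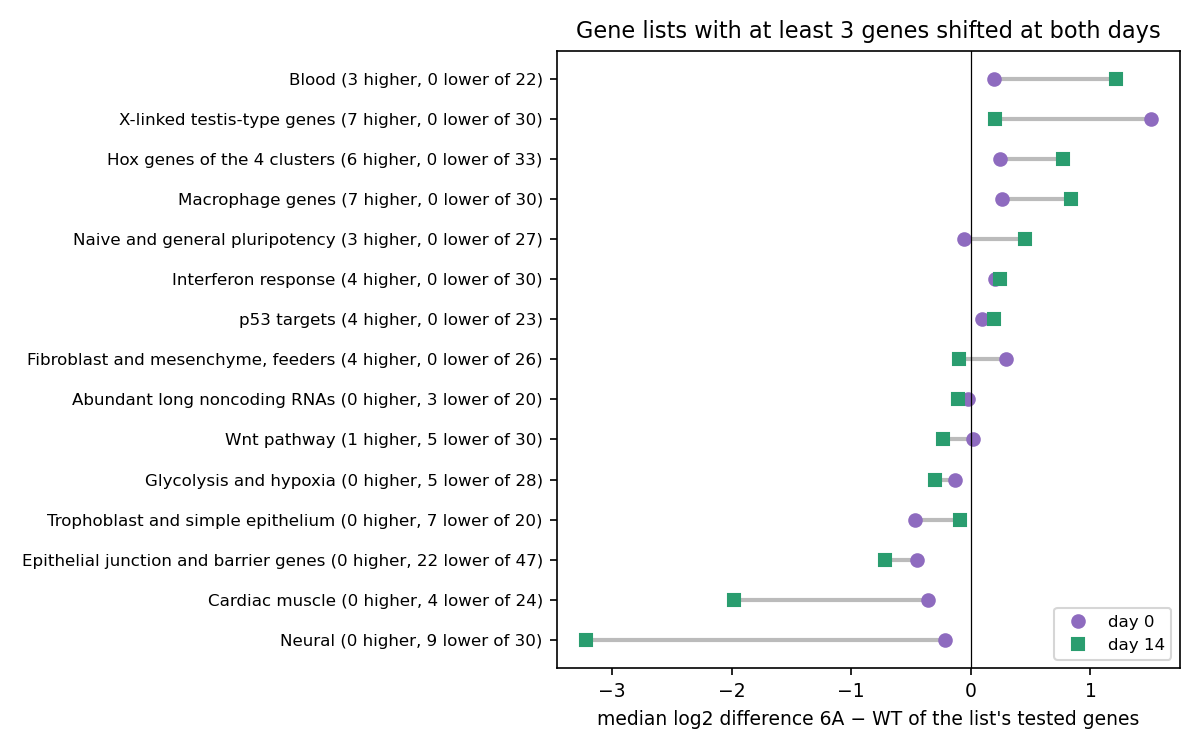
Rows are the gene lists with at least 3 genes shifted at both days, with the counts of higher and lower members among those tested, and the horizontal axis is the median log2 difference (6A minus WT) of the tested members at day 0 (circles) and day 14 (squares). Medians have opposite signs at the 2 days for the pluripotency, Wnt and fibroblast lists and the same sign for the other rows. Neural and cardiac medians are far lower at day 14, and the X-linked testis-type median is far higher at day 0.

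Of all genes tested, 5.75% were shifted at both days, a share at which a short list can hold none. Some lists had no gene shifted at both days. These were the primitive streak and mesendoderm genes (15 tested), the Xist silencing and localization factors (19), the X-linked genes known to escape inactivation (13), the RNA processing and nonsense-mediated decay genes (26), the clustered protocadherins (44), the replication-dependent histones (60) and the integrated stress response genes (26). When single libraries were left out, the count reached 4 for the histones, 3 for RNA processing, 2 for the stress response and 1 for the Xist factors. Fitted differences were below 0 at both days for 29 of the 60 histones (48.3%, all genes 24.7%) and above 0 for 1. Of the 84 cytosolic ribosomal protein genes tested, Rpl37 was shifted lower and Rpl10l higher (1.19% each), and 43 (51.2%, all genes 24.7%) had fitted differences below 0 at both days. That count of 2 was 0 without either 6A library of day 0, without WT day 14 replicate 1 or without 6A day 14 replicate 1, 1 without any of the other libraries except WT day 0 replicate 1, without which it was 5, and 4 with the GC correction. Some called averages hid opposite differences. Adgrv1, a giant adhesion receptor, stood at 31.8 and 32.7 CPM in WT, against 43.9 and 41.5 CPM in 6A at day 0, but at 44.6 and 54.9 CPM in WT, against 7.15 and 5.89 CPM in 6A at day 14. Usp26, an X-linked testis deubiquitinase, stood at 43.1 and 28.7 CPM in WT, against 165 and 173 CPM in 6A at day 0, but at 13.9 and 14.0 CPM in WT, against 9.17 and 9.85 CPM in 6A at day 14. Ebf3 and Tfap2b, transcription factors of neural and craniofacial development, likewise had groups without overlap in opposite directions, with 0.83 and 0.61 at day 0 and -1.78 and -3.58 at day 14.

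By chromosome, the share of tested genes higher at both days ran from 1.44% on chromosome 11 to 6.24% on chromosome 6 among autosomes. On chromosome 6, 49 of 785 genes were higher and 14 lower, with a median of 0.04 at day 0 and 0.15 at day 14. Among the higher ones were Hoxa9, Hoxa13, Aebp2, C3ar1 and Olr1, which belong to unrelated groups. Allele reads on chromosome 6 came almost only from the mus genome in all 8 libraries, with a median share per gene of 98.0% to 99.0%, so this chromosome gave little information on a second allele in either genotype.

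The shifted genes differed by base composition. HNRNPK binds cytosine-rich RNA, and the GC content of the annotated transcript and the number of CCCC runs were therefore counted. Genes higher at both days had a median transcript GC content of 45.7%, lower genes 54.7% and all genes tested 49.9%. CCCC runs had medians of 3.51, 6.85 and 4.40 per kilobase in the same order, and since GC content and CCCC runs move together these are not separate observations. When genes were ordered by GC content and divided into 5 nearly equal bins, in the bin of lowest GC content, 184 were higher (6.17%) and 18 lower (0.604%). In the bin of highest GC content, 28 were higher (0.939%) and 150 lower (5.03%). The median difference of all genes fell along the bins at both days, from 0.17 to -0.15 at day 0 and from 0.06 to -0.08 at day 14. When each library's dependence on GC content was fitted and removed, the bins held 82 to 119 higher and 57 to 88 lower genes, and 868 genes were shifted, 625 of them (70.3%) among the 889. This correction removes any GC trend, whatever its source. Xlr3a, Mageb16, Lyz2, C3, Timp3, Celsr3, Eppk1, Cldn4, Esrp1, Egln3 and Hnrnpk were shifted at both days with the correction too, Xlr3a at 1.27 and Celsr3 at -1.51. Other shifted genes named above no longer met the definition, among them Scml2, Tsx, Aebp2, Mdm2, Pmaip1, Rpl37, Dmrt2, Tdgf1 and Tubb3.

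**Figure D5:**
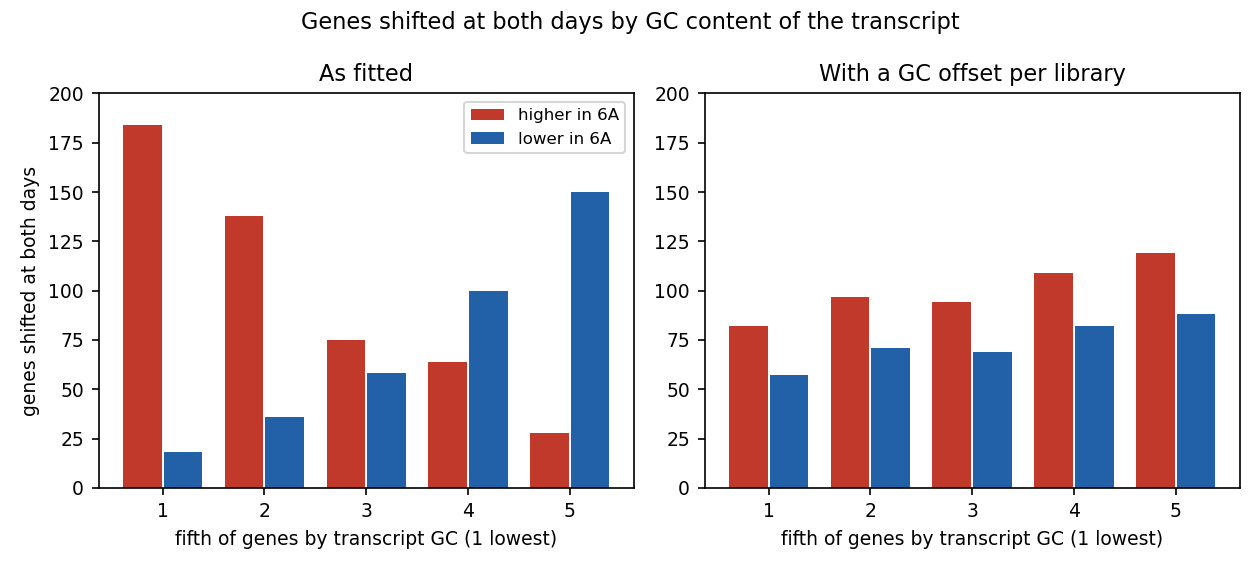
Bars give the number of genes shifted at both days, higher (red) and lower (blue) in 6A, in 5 bins of the tested genes ordered by GC content of their transcripts. As fitted, higher genes fall from 184 to 28 and lower genes rise from 18 to 150 along the bins; with a GC offset per library the numbers lie between 57 and 119.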

How the data were processed

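RNA depleted of ribosomal RNA was sequenced as directional libraries of 150-base read pairs, per the labels' protocols, in 8 libraries. The tools cutadapt (1.4.2) and STAR (2.7.10a) and the build mm10 appear in the submitters' processing notes, with no role given. The sources used here do not state the counting tool, strand setting, annotation or allele method, and reads of overlapping or antisense genes may be counted together. The deposited tables hold raw counts per gene, for all reads and for reads given to each parental genome. The series' text names day 7 for the differentiated cells, while titles and protocol give day 14, which was used.

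Counts of all reads were fitted with edgeR 4.0.16 (R 4.3.3): filterByExpr, TMM scaling, 1 coefficient per group, 4 residual degrees of freedom and robust quasi-likelihood tests with Benjamini-Hochberg adjustment over 15458 genes. The contrast was the mean of both days' differences. Standard errors and 95% intervals are Wald values on the log2 scale. The common biological coefficient of variation was 0.111. For 1 gene, an exact permutation test with labels permuted within day has 36 arrangements and cannot go below p = 0.0556 (two-sided). The method was tested on simulated counts.

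The gene lists, the members and the rule for named genes were chosen with earlier results of these data known. The rule took Hnrnpk and Xist; the 15 higher and 15 lower genes with the largest smaller difference of both days at a mean of at least 1 CPM; up to 3 called members per list; the 5 higher and 5 lower genes of similar size with the smallest adjusted p; and 4 genes of opposite direction. Other members of lists, and 1700019B21Rik, Agtr2, Lamp2, Gla, Atp7a and the 5 lower X-linked genes, were named after their values were seen. The lists of macrophage and epithelial junction genes were added after values were seen, as was the GC offset (a loess fit per library on the GC content of the longest GENCODE M21 transcript, GRCm38). Symbols matched the annotation directly for 23264 genes and through a synonym for 690, and 467 did not match. Replicate libraries differed by more than sampling noise (chi-square per degree of freedom 8.02 to 16.9), so none was counted as a duplicate. Alternatives were DESeq2 1.42.0, RLE scaling, other count filters, an additive model, a replicate block, leaving out each library, a size threshold, and leaving out feeder and Y-linked genes.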

Additional observations from a re-analysis of the deposited data

Results flagged for a closer look

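For 29 named genes the genotype difference at day 14 differed from that at day 0 by edgeR's interaction test with Benjamini-Hochberg adjustment. Values are the day 14 difference minus the day 0 difference on the log2 scale. Among neural genes it was -3.63 for Miat, -2.32 for Map2 and -2.09 for Tubb3, and for the developmental factors Otx2 and Zic2 it was -0.96 and -1.14. Heart and muscle genes had -3.83 for Myh7, -2.44 for Ttn and -1.70 for Mybpc3. X-linked genes had -2.98 for 1700013H16Rik, -2.80 for Usp26, -2.22 for Scml2, -1.95 for Xlr3b and -1.60 for Bgn, a matrix proteoglycan. Germline genes had -1.91 for Dazl and -1.24 for Tex15, and Tuba3b had -1.34. Genes of opposite direction had -4.20 for Tfap2b, -3.34 for Adgrv1 and -2.61 for Ebf3. The protocadherin Pcdhac2 had -2.74, the histone gene Hist3h2ba -1.36 and the growth factor Vegfa -1.14. Positive values were found for Hbb-bh1 at 6.39, Cubn, an endocytic receptor of yolk sac endoderm, at 2.38, Ap1m2 at 1.86, Lef1 at 1.76, Tek, an endothelial receptor, at 1.61, Lin28a at 1.26 and Asns at 0.61. The value for Hbb-bh1 rests on 7 and 6 counts at day 0.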

How the results depend on the processing

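No named gene reversed its average difference under any alternative. With 1 genotype and 1 day term, 704 genes were called in the average, 507 were shifted at both days and 33 of these were higher X-linked genes. Without a filter on low counts, 459 genes were called at day 0 and 110 at each day. An average difference over 1 on the log2 scale left 293 called, 189 shifted, 22 called at each day and 11 higher X-linked genes, and the GC offset, chosen after seeing the data, left 35 X-linked genes. Leaving out single libraries gave 542 to 1967 genes called in the average, 414 to 1637 shifted, 7 to 138 called at each day, 29 to 537 at day 0, 1026 to 2724 at day 14, 270 to 821 for the difference between days and 23 to 81 higher X-linked genes. The lone library of a group is there assumed to vary like the others. DESeq2, RLE scaling, a filter at 1 CPM, and leaving out feeder and Y-linked genes kept these 7 counts within 1.5 times. Of 101 named genes, the call was lost for 43 with the additive terms, 11 with DESeq2, 12 with the GC offset and 8 to 32 without a library. Correlations of same-numbered deviations between groups were 0.01 to 0.38, all positive, and the main model had no replicate term. With a replicate block, 1639 genes were called in the average, 1074 were shifted, 466 were called at day 0 and 105 at each day. With 2 libraries a group, and few counts at day 0 for many named lower genes, small differences could be missed, although some shifted genes had averages as small as 0.28 and -0.27.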
